A study of Sus scrofa with 33 samples.

Results

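The genes described here mark the posterior lobe of the pituitary and its glia in pituitary samples of pigs kept at thermoneutrality (TN) or exposed to heat (HS). They are AVP, OXT, LHX2, S100B, GFAP, AQP4 and SLC1A3. Every probe of the array whose gene name was one of these symbols was taken, which gave 16 of 60305 probes and 7 of 11052 named genes. Of these probes, 15 are in the deposited table of 45667 probes. The other one, a second GFAP probe, was well above background on 6 of 33 arrays and is not in that table.

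RNA of 33 castrated male growing pigs was measured with 1 array per pig, 5 Large White TN (LW TN), 6 LW HS, 5 Creole TN (CR TN), 6 CR HS, 6 F1 TN and 5 F1 HS, where F1 is the cross of Large White and Creole. Room temperature was 24 °C (TN) or 30 °C (HS) by the labels, but the series text puts the heat at 32 °C, lasting 5 days. Age of the animals at the start of experimental housing was 11 weeks. Slaughter of the TN pigs came before the heating, so slaughter day and age cannot be told apart from temperature. The labels name separate animals but carry neither pens nor litters, so p-values treat littermates as independent. The array LW HS 3 is Large White in its title and Creole in its breed field, and it was analysed as Large White.

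AVP and OXT encode the precursors of vasopressin and oxytocin. Both hormones are made by large neurons of the hypothalamus, travel down their axons and are released from the posterior lobe into the blood. Vasopressin makes the kidney save water, and oxytocin acts on the uterus and mammary gland. The glia around these axons, the pituicytes, need the transcription factor LHX2 to form and carry glial proteins such as the calcium-binding S100B and the intermediate filament GFAP. AQP4, a water channel, and SLC1A3, a glutamate transporter, are astrocyte proteins, and S100B is also made by the folliculostellate cells of the anterior lobe.

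According to the labels the tissue was pituitary gland, and in the study's methods the anterior lobe was sampled. Hormone genes of the anterior lobe were checked as its markers. All 7 (GH1, PRL, POMC, CGA, LHB, FSHB and TSHB) stood well above background on each of the 33 arrays, and their mean log2 value per array was between 16.61 and 18.12. Posterior lobe genes were measured on the same arrays. Of 11 such markers 7 had a named probe in the table, and their mean per array was between 10.66 and 12.43. Across all arrays 73.5% to 82.2% of spots were well above background, and no spot was marked as saturated. In bulk tissue, fewer cells of a type and less RNA per cell cannot be told apart.

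The probe sequences are shown because several probes of the same gene gave different pictures. Probes are written 5′ to 3′ as on the array. In the AVP probe A_72_P177446 the capitals mark 21 bases that, read in frame, encode the last 7 residues of the hormone, with the lysine codon (AAG) that pigs have in place of arginine. In the AVP probe O6139, the OXT probes and the S100B probe the capitals mark the poly(A) signal AATAAA or, on the opposite strand, TTTATT. Of these probes a stretch of 30 bases around the signal is shown. The LHX2 probe is printed whole, as the only probe of that gene.
AVP, A_72_P177446, whole probe: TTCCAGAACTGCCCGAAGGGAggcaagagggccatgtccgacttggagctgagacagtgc
AVP, O6139, last 30 bases: acgaaaAATAAActgttttaaaggcaaaaa
OXT, 30 bases shared by O780 and A_72_P442402: ttatgactctgaAATAAAgcacatgttttc
OXT, the same stretch on A_72_P245512: gaaaacatgtgcTTTATTtcagagtcataa
LHX2, A_72_P444597, whole probe: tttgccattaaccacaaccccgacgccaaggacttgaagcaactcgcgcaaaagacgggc
S100B, A_72_P215692, last 30 bases: tcgcttgtatttgcattaAATAAAaagcat

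By their sequences, the AVP probes read different parts of the transcript, A_72_P177446 the coding sequence of the hormone and O6139, with its poly(A) signal and 5 trailing A, the 3′ end. They shared no run of more than 6 bases. Probes O780 and A_72_P442402 of OXT shared 56 bases, so they were not independent measurements. A_72_P245512 is the reverse complement of A_72_P442402 over 59 bases, so it reads the opposite strand. The 2 dimmer SLC1A3 probes, O13275 and A_72_P167041, shared 49 bases. Probe positions were not checked against pig transcripts, and cross-hybridisation of the probes with related genes was not tested. All values are log2 of quantile-normalised intensity. Levels of different probes are given for description only and do not compare amounts of RNA between genes or marker lists.

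AVP on its 3′ end probe was one of the steadiest measurements of the table. On O6139 the LW TN pigs measured 16.82, 16.88, 16.93, 16.97 and 17.08, and the CR TN pigs measured 16.89, 16.96, 16.97, 17.02 and 17.09. In F1 HS the values were 16.84, 16.95, 17.01, 17.10 and 17.15. In the groups of 6 pigs the low, median and high were 16.97, 16.999 and 17.13 in LW HS, 16.78, 16.94 and 17.02 in CR HS, and 16.92, 17.01 and 17.08 in F1 TN. All groups overlapped. The within-group SD was 0.085, at percentile 1.05 of the 45608 probes without missing values, whose median SD was 0.199. The pixel intensity of the probe lay between 112613 and 144893 over the arrays, with no array marked as saturated.

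The coding-part probe of AVP varied more than almost any other probe. On A_72_P177446 the LW TN pigs measured 7.78, 8.15, 8.47, 9.40 and 10.38, the CR TN pigs 7.50, 7.72, 7.81, 8.01 and 9.46, and the F1 HS pigs 7.31, 7.66, 8.29, 8.81 and 9.12. The low, median and high were 7.13, 7.97 and 9.04 in LW HS, 7.11, 8.04 and 9.59 in CR HS, and 7.88, 8.78 and 9.41 in F1 TN. Groups overlapped throughout, and the highest pig, LW TN 2, was 9.64-fold above the lowest, CR HS 4. The within-group SD of 0.78 was at percentile 99.4 of the table. Deviations of both AVP probes from their group means correlated weakly, as a description (n = 33 arrays, r 0.20 and rho 0.14 by Pearson and Spearman).

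OXT was described by its brighter 3′ end probe. On O780 the LW TN pigs measured 15.57, 15.66, 15.67, 15.71 and 15.90, the CR TN pigs 15.58, 15.66, 15.76, 15.77 and 15.77, and the F1 HS pigs 15.34, 15.40, 15.53, 15.66 and 15.81. The low, median and high were 15.42, 15.75 and 15.86 in LW HS, 15.35, 15.66 and 15.79 in CR HS, and 15.46, 15.73 and 15.83 in F1 TN. The F1 HS pigs reached the lowest value but overlapped with every other group. The within-group SD was 0.146 (percentile 20.8). The overlapping sense probe A_72_P442402 followed it (r 0.88) with a larger SD of 0.218 (percentile 58.9), while the antisense probe, at 7.69 to 9.07, did not (r 0.11).

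LHX2 set 2 pigs apart. Its single probe measured 8.51 on CR TN 1 and 8.33 on LW TN 2, and 5.94 to 7.24 on the other 31 arrays (median 6.66). The remaining CR TN pigs measured 6.41, 6.48, 6.69 and 7.24, and the remaining LW TN pigs 6.52, 6.56, 6.61 and 6.81. In F1 HS the values were 6.20, 6.42, 6.65, 6.69 and 6.78. The low, median and high were 6.30, 6.67 and 6.97 in LW HS, 5.94, 6.79 and 7.02 in CR HS, and 6.33, 6.67 and 6.93 in F1 TN. Apart from those 2 pigs, all groups overlapped. The within-group SD of 0.506 was at percentile 97.1.

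On its bright probe, S100B was highest on the same 2 pigs. This probe, A_72_P215692, measured 15.26 on CR TN 1 and 15.22 on LW TN 2, above all 31 others (14.01 to 15.04). The other CR TN pigs measured 14.44, 14.48, 14.54 and 14.74, the other LW TN pigs 14.14, 14.49, 14.51 and 14.69, and the F1 HS pigs 14.17, 14.18, 14.19, 14.34 and 14.83. The low, median and high were 14.22, 14.28 and 14.83 in LW HS, 14.53, 14.78 and 15.04 in CR HS, and 14.01, 14.34 and 14.86 in F1 TN. Most of the CR HS pigs lay above most of the F1 pigs, with some overlap. A dim second probe, O1711, was well above background on 31 of 33 arrays and followed the first (r 0.75). It did not put the same 2 pigs highest. CR TN 1 measured 5.94 on it, with 7 of the 31 others above, and LW TN 2 measured 6.06, with 4 above.

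AQP4 had a median pixel intensity of 1267 over a local background of 39 on its main probe. Its probes O5901, A_72_P226212 and A_72_P165426 shared no run of more than 6 bases and agreed closely with each other (r between 0.88 and 0.90). On O5901 the values ran from 9.52 on F1 TN 4 to 10.79 on F1 TN 1, a 2.41-fold range within 1 group, and its SD was at percentile 90.8. GFAP measured 5.60 to 7.41, with CR HS 4 highest, and SLC1A3 measured 5.55 to 6.96 on its main probe, with LW HS 1 highest. Both were close to background. The GFAP probe had a median pixel intensity of 64 over a local background of 43, and the SLC1A3 probe of 60 over 38, well above background on 32 of 33 arrays. The main SLC1A3 probe did not follow the other 2 (r 0.24 and 0.18), which followed each other (r 0.65).

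**Figure D1:**
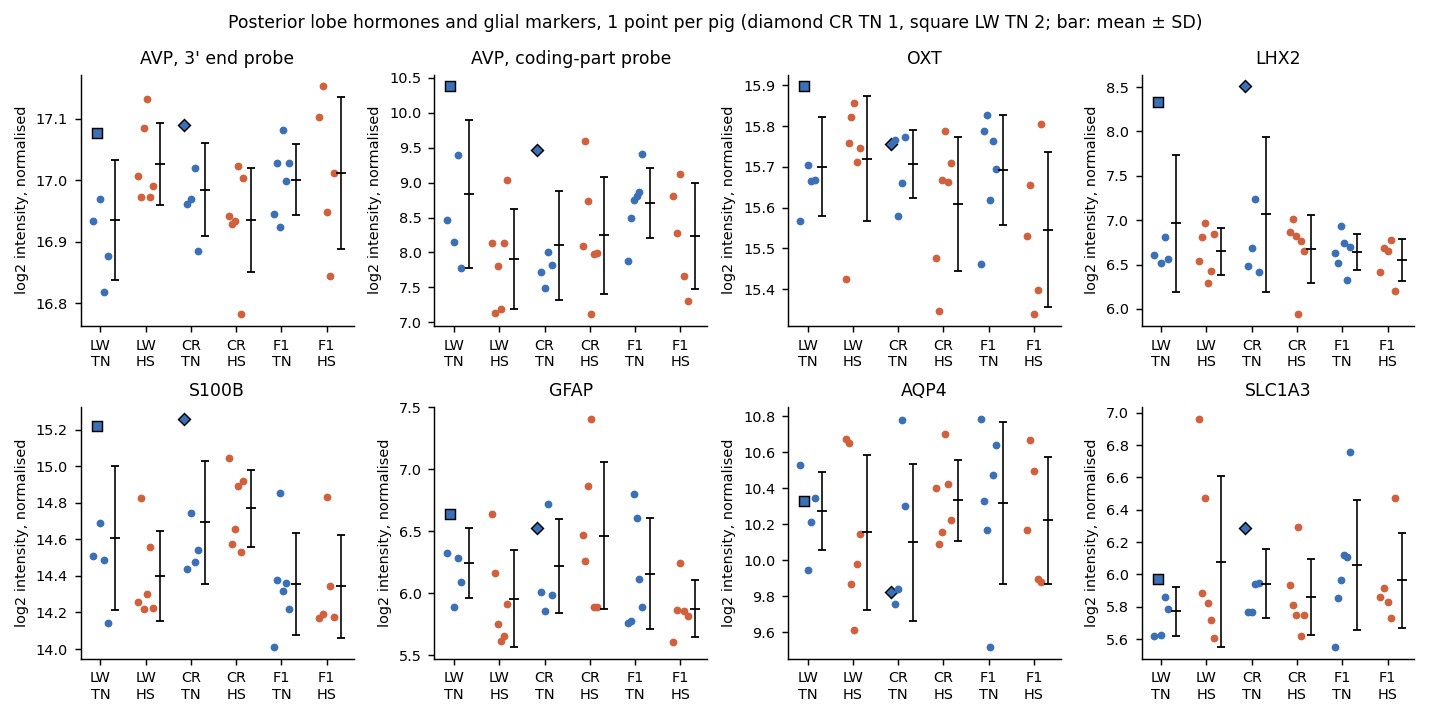
Normalised log2 intensity of AVP (both probes) and of the brightest probe of each other gene, 1 point per pig in the 6 breed-by-temperature groups (blue TN, orange HS), with group mean ± SD as bars. The vertical axes differ in range: the AVP 3′ end probe spans 0.37 log2 units and the coding-part probe 3.27. The diamond (CR TN 1) and the square (LW TN 2) stand apart for LHX2, are the highest for S100B and lie inside the range of the other pigs for GFAP, AQP4 and SLC1A3.

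The first question was whether heat exposure changed these genes. No probe passed the test between HS and TN. By limma with breed in the model, 0 of 15 probes passed an adjusted p of 0.05, against 0.0219% of all probes (10 of 45667). An unadjusted p under 0.05 was found for 0 of the 15, against 8.77% of all probes. The adjusted p-values ranged from 0.674 to 0.996. AVP on O6139 measured 16.98 ± 0.08 (SD, n = 16) in TN and 16.99 ± 0.10 (n = 17) in HS, a log2 difference of 0.02 with a 95% interval of -0.06 to 0.09, and 11 of 17 HS pigs lay above the TN mean of their breed. OXT on O780 went from 15.70 ± 0.11 to 15.63 ± 0.17, a difference of -0.08 (interval -0.18 to 0.03), with 8 of 17 HS pigs above.

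The widest intervals were those of the coding-part AVP probe and LHX2. The first measured 8.56 ± 0.80 in TN and 8.12 ± 0.74 in HS, a difference of -0.42 (interval -0.95 to 0.11, limma adjusted p 0.680), and 5 of 17 HS pigs lay above the TN mean of their breed. LHX2 measured 6.88 ± 0.64 in TN and 6.63 ± 0.29 in HS, a difference of -0.27 (interval -0.60 to 0.06, adjusted p 0.674). Both CR TN 1 and LW TN 2 are TN pigs. Without these arrays, left out after their values were seen, the limma difference was -0.19 (SE 0.235) for the coding-part AVP probe and -0.04 (SE 0.0953) for LHX2. S100B gave a difference of -0.05 (interval -0.25 to 0.15), and of 0.05 without both arrays. GFAP gave -0.11 (interval -0.39 to 0.18), and -0.29 with the processed signal (adjusted p 0.727), AQP4 on O5901 0.01 (interval -0.24 to 0.25) and SLC1A3 0.04 (interval -0.19 to 0.27).

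Within breeds, limma called 0 of 15 probes in Large White, Creole or F1 (0.0% of all probes in each). At an unadjusted p under 0.05 were 1, 1 and 0, against 6.80%, 5.85% and 5.68% of all probes. The first of these was the coding-part AVP probe in Large White, with a log2 difference of -0.93 (SE 0.44, unadjusted p 0.0442, adjusted p 0.726), and -0.54 (SE 0.40) without both arrays. The other was the antisense OXT probe in Creole, at 0.42 (SE 0.20, unadjusted p 0.0452, adjusted p 0.829). The interaction of breed and temperature was called for 0 probes (0.0% of all), with adjusted p-values of 0.926 to 0.958. It had 0 unadjusted p under 0.05, against 4.25% of all probes, so no difference in heat response between breeds was detected for these genes.

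Between breeds, S100B was the single gene called, with Creole pigs highest. In F1 pigs it measured 14.35 ± 0.27 (n = 11) against 14.74 ± 0.26 in Creole, a log2 difference of -0.39 (SE 0.12, interval -0.63 to -0.15) or 0.763-fold, with a limma adjusted p of 0.0418. This made 1 of 15 probes called, while 6.86% of all probes were called between F1 and Creole, and 5 of 15 had an unadjusted p under 0.05, against 21.8% of all probes. Of 11 F1 pigs 9 lay below every Creole pig, and the other 2, F1 TN 3 at 14.86 and F1 HS 3 at 14.83, lay among them. Large White lay between, at 14.49 ± 0.32, and passed the test against neither (-0.24 against Creole, adjusted p 0.270; F1 against Large White -0.15, adjusted p 0.656). The F1 against Large White value was -0.07 without LW TN 2 and -0.06 without both LW TN 2 and CR TN 1. The call was close to the threshold. It was lost in 14 of 33 fits that left out 1 array (adjusted p 0.0147 to 0.0873 over the 33), namely CR TN 1 or 3, CR HS 1, 3, 4 or 6, F1 TN 1, 2, 4, 5 or 6, or F1 HS 1, 2 or 5, with the highest p without CR TN 1. Without both CR TN 1 and LW TN 2 it was kept at -0.33 (adjusted p 0.0494). It was also lost with the processed signal (0.109), with LW HS 3 taken as Creole (0.0854) and with quantile normalisation repeated from the scanner files (0.0517). The second S100B probe gave -0.15 (adjusted p 0.423).

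The direction was the same on each slide. F1 minus Creole was -0.87 on slide 1 (1 pig each), -0.57 on slide 2, -0.25 on slide 3, -0.10 on slide 4 and -0.41 on slide 5, and with slide as a fixed block limma gave -0.40 (adjusted p 0.0339). Some markers of other cell types were also called in this comparison, in which 6.86% of all probes were called. ANXA1, an annexin of folliculostellate cells, was lower in F1 than in Creole, at a difference of -0.67 (adjusted p 0.00196), 1 of 9 genes called in that list. The axon growth protein GAP43 was lower at -0.37 (adjusted p 0.0264), the single call among 11 neuronal genes, of which 9 had positive differences (median 0.04). Among 7 endothelial genes KDR was higher at 0.59 (0.00968) and TEK lower at -0.75 (0.00814). By list, 5 of 6 myelin genes had negative differences (median -0.41, 0 calls, 2 with an unadjusted p under 0.05), as had 8 of 11 astrocyte genes with S100B among them (median -0.21, 1 call), 5 of 7 posterior lobe genes (median -0.21, 0 calls, 0 unadjusted) and 6 of 9 folliculostellate genes (median -0.05). The median over all 9675 genes was 0.02. Without CR TN 1 and LW TN 2 these list medians were -0.34, -0.10, -0.05 and -0.12, and 2 more list genes were called lower in F1 than in Creole, TSHB at -0.68 (limma adjusted p 0.0177; -0.09 and 0.956 with all arrays) and CPE, a carboxypeptidase of prohormone processing, at -0.40 (0.0485; -0.36 and 0.0744 with all arrays). In that fit TSHB was lower still in Large White, at -1.41 against Creole (limma adjusted p 5.8e-06; 0.153 with all arrays). F1 against Large White gave 0.73 for TSHB (limma adjusted p 0.0285; 0.276 with all arrays). The mean log2 level of the folliculostellate list ranged from 12.24 to 12.52 in Creole and from 12.15 to 12.41 in F1. Their part in the S100B difference was not tested.

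**Figure D2:**
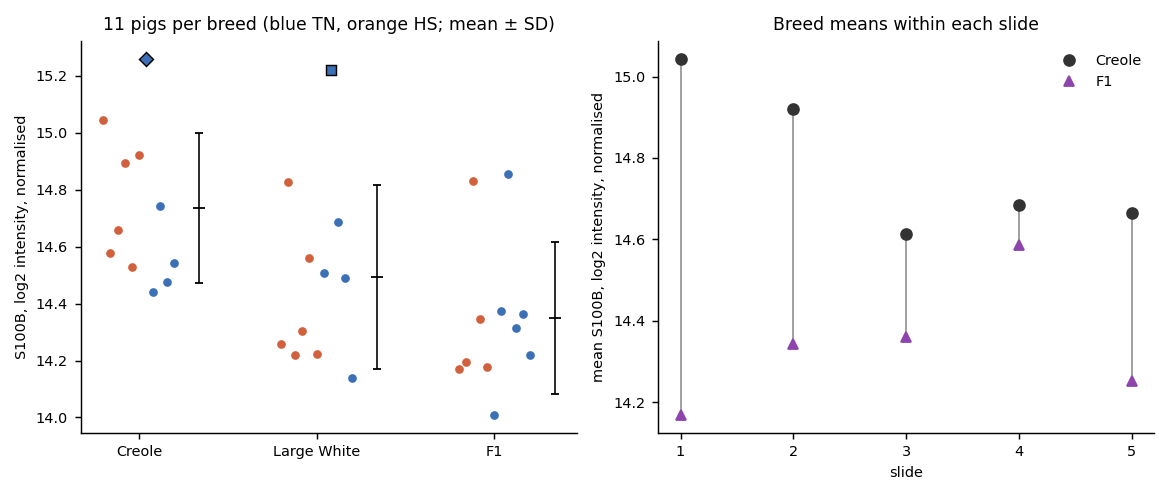
S100B, log2 normalised intensity. Left, 11 pigs per breed (blue TN, orange HS, diamond CR TN 1, square LW TN 2) with the mean ± SD; 9 of 11 F1 pigs lie below all Creole pigs. Right, the mean of Creole (circles) and F1 (triangles) on each of the 5 slides, with Creole higher on all 5 by 0.10 to 0.87.

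No breed difference of another gene passed the test. Between Large White and Creole limma called 0 of 15 probes (6.65% of all probes), with 0 at an unadjusted p under 0.05 (18.7% of all). Between F1 and Large White it called 0 of 15 (1.48% of all probes), with 3 at an unadjusted p under 0.05 (13.9% of all). AVP on O6139 measured 16.98 ± 0.09 for Large White pigs, 16.96 ± 0.08 for Creole and 17.01 ± 0.09 for F1 (n = 11 each), and OXT on O780 measured 15.71 ± 0.13, 15.65 ± 0.14 and 15.63 ± 0.17. LHX2 in these breeds was 6.79 ± 0.55, 6.85 ± 0.65 and 6.60 ± 0.21, where the larger SDs contain LW TN 2 and CR TN 1. The dim SLC1A3 probe O13275 came nearest, with 5.68 ± 0.17 in F1 against 5.95 ± 0.18 in Large White, a difference of -0.27 (SE 0.08, adjusted p 0.0782), while the main SLC1A3 probe had a difference of 0.08. It passed in 3 alternatives, with array weights (adjusted p 0.0404), without CR HS 4 (0.0494) and without F1 TN 3 (0.0354). The overlapping probe A_72_P167041 had -0.19 for F1 against Creole (adjusted p 0.0999) and passed without CR HS 2 (0.0495). AQP4 for F1 against Large White gave 0.35 on A_72_P165426 (adjusted p 0.293), 0.26 on A_72_P226212 (adjusted p 0.582) and 0.07 on O5901 (adjusted p 0.909). Against Creole the same probes gave 0.36 (unadjusted p 0.0294, adjusted p 0.169), 0.37 (unadjusted p 0.0434, adjusted p 0.211) and 0.05 (adjusted p 0.897).

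**Figure D3:**
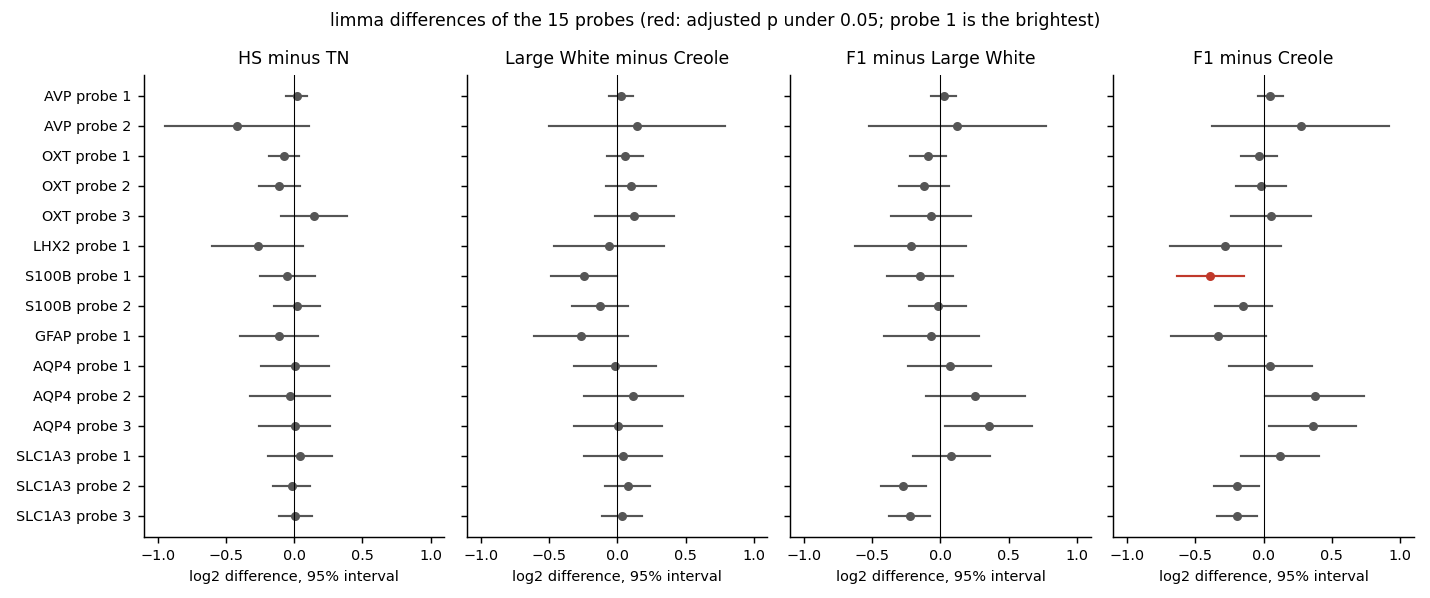
Log2 differences of the 15 probes by limma with their 95% intervals for HS minus TN, Large White minus Creole, F1 minus Large White and F1 minus Creole; within a gene, probe 1 is the brightest. Intervals of the bright AVP and OXT probes are narrow and cover 0, those of AVP probe 2 and LHX2 are wide, and the bright S100B probe in F1 minus Creole, at -0.39, is the single call (red).

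How the genes varied together was examined on deviations from the 6 group means, which removes the mean differences between breeds and temperatures. Over 21 gene pairs, r ranged from -0.19 to 0.54 with a median of 0.16. By permutation of arrays within groups (100000 resamples), 3 pairs had an unadjusted p under 0.05 and 0 passed Benjamini-Hochberg adjustment over the 21 pairs. These were LHX2 with S100B (r 0.54, rho 0.18, permutation p 0.0170, adjusted p 0.148), S100B with GFAP (r 0.40, rho 0.30, permutation p 0.0206, adjusted p 0.148) and GFAP with SLC1A3 (r 0.43, rho 0.50, permutation p 0.0212, adjusted p 0.148). The relation of LHX2 with S100B rested on 2 pigs, since r was 0.045 without CR TN 1 and LW TN 2, which lie farthest from the median of LHX2. For S100B with GFAP r was then 0.32. Leaving out CR HS 4 and CR HS 3, which lie farthest out for GFAP, r of GFAP with SLC1A3 was 0.38. Within slides 2 to 5 r was 0.76, 0.18, 0.14 and 0.19 for LHX2 with S100B, 0.57, 0.20, 0.29 and -0.26 for S100B with GFAP, and 0.84, -0.06, 0.80 and 0.18 for GFAP with SLC1A3.

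The hormone genes AVP and OXT, on their bright 3′ end probes, gave r 0.36 (rho 0.40, permutation p 0.0755 for r and 0.0397 for rho, adjusted p 0.337 and 0.326). Without the 2 arrays farthest from the median for AVP, r was 0.40. The value moved with the processing and the slides. With the processed signal it was 0.19 (permutation p 0.272). With slide means also removed r was 0.64 (permutation p 0.00065, adjusted 0.0136 over the 21 pairs), and within slides r was 0.94 on slide 2 (7 arrays), 0.70 on slide 3 (8), 0.25 on slide 4 (7) and 0.24 on slide 5 (8). Slide 1, with 3 arrays, was too small for a value. By breed, the Large White pigs gave r 0.56, the F1 pigs 0.38 and the Creole pigs 0.13, and these were not tested against each other. Without CR TN 1 and LW TN 2 r was 0.28 (permutation p 0.222). AVP with SLC1A3 gave r 0.30 (permutation p 0.0802, adjusted p 0.337) and rho 0.36 (permutation p 0.0466, adjusted p 0.326). AVP with AQP4 gave r -0.09, and OXT gave r 0.10 with SLC1A3 and -0.19 with AQP4.

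The coding-part AVP probe gave another picture, and its pairs were computed after the values had been seen. It followed LHX2 (r 0.68, permutation p 0.00019, adjusted p 0.00114 over 6 pairs; rho 0.58, permutation p 0.00094) whereas r was lower with OXT (r -0.14, permutation p 0.483), S100B (r 0.33, permutation p 0.103), GFAP (r 0.18), AQP4 (r -0.04) or SLC1A3 (r 0.13). Here both arrays carried part of the relation. Without CR TN 1 and LW TN 2 r was 0.47 (31 arrays, permutation p 0.0162). With any 1 array left out r stayed between 0.59 and 0.72, and without LW TN 2 and CR HS 2, which lie farthest from the median for AVP, it was 0.58. With slide means removed r was 0.59, and within slides it was 0.72, 0.32, 0.68 and 0.64 on slides 2 to 5. By breed it was 0.83 in Creole, 0.72 in Large White and 0.22 in F1, not tested against each other. The 3′ end AVP probe gave r 0.27 with LHX2, and -0.22 without both arrays.

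The temperatures taken apart, also after the values had been seen, gave unlike r for several pairs. For the coding-part AVP probe r with OXT was -0.59 in the 17 HS pigs and 0.54 in the 16 TN pigs, and 0.31 in the 14 TN pigs other than CR TN 1 and LW TN 2. With S100B it was -0.16 in HS, 0.71 in TN and 0.24 in these 14. With SLC1A3 it was -0.28 in HS, 0.71 in TN and 0.72 in these 14, and with LHX2 0.54, 0.82 and 0.31. The pooled r of the first 3 pairs therefore joins values of opposite sign. LHX2 with S100B gave -0.04 in HS, 0.76 in TN and 0.18 without both arrays, and LHX2 with GFAP -0.31, 0.60 and 0.70. For S100B with GFAP r was 0.28 in HS, 0.53 in TN and 0.37 without both arrays, and for GFAP with SLC1A3 0.53, 0.26 and 0.12. On the 3′ end probes AVP with LHX2 gave -0.35, 0.68 and 0.10, and AVP with OXT 0.42, 0.26 and -0.15. The temperatures were not tested against each other.

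**Figure D4:**
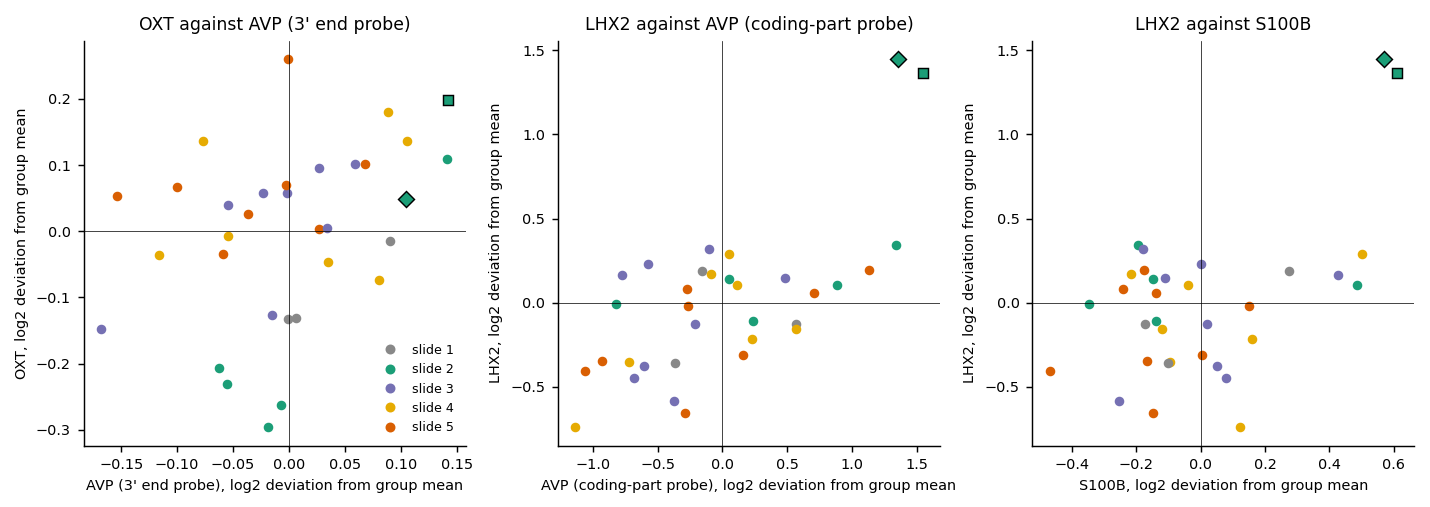
Deviations from the group mean (log2 units), 1 point per pig, coloured by slide, for OXT against the AVP 3′ end probe (r 0.36), LHX2 against the AVP coding-part probe (r 0.68) and LHX2 against S100B (r 0.54). The diamond (CR TN 1) and square (LW TN 2) lie alone at the upper right of the LHX2 panels, and both are on slide 2.

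The pigs CR TN 1 and LW TN 2 were then described with marker lists of the cell types a pituitary sample can hold. Among 7 posterior lobe genes, 5 on CR TN 1 and 6 on LW TN 2 were above every other pig of their group, with a median difference of 1.41 and 1.17 log2 units. Over all 9675 named genes the median differences were -0.01 and -0.03, 26.1% and 29.2% were above every other pig of the group, and 29.2% and 36.1% were below. LHX2 and S100B singled these pigs out and belong to the lists. The lists were chosen with earlier results of these data known, so the counts are given as a description. Without LHX2, 4 and 5 of 6 posterior lobe genes were above, with medians of 0.77 and 0.71. ADM, the vasodilator peptide adrenomedullin, measured 13.67 on CR TN 1 against 11.04 to 11.58 in its group, and 13.84 on LW TN 2 against 11.03 to 11.90. CRYM, a thyroid hormone-binding crystallin, measured 10.97 against 7.59 to 8.90 and 10.59 against 7.59 to 8.02. The transcription factor TBX3 measured 11.87 against 10.18 to 10.75 and 11.54 against 10.22 to 10.55. VAV3 went the other way, at 9.12 against 9.16 to 9.62 and 9.09 against 9.25 to 9.66. The hormone genes of the list, on their brightest probes, differed less from the mean of the other pigs. AVP on O6139 was 0.13 and 0.18 higher. Its coding-part probe, not used in the list, measured 9.46 on CR TN 1 against 7.50 to 8.01 in its group. On LW TN 2 that probe measured 10.38, above the 7.11 to 9.59 of the 31 arrays other than these 2. OXT on O780 was 0.06 higher on CR TN 1, inside its group, and 0.25 higher on LW TN 2.

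Of 11 astrocyte genes 7 on CR TN 1 and 9 on LW TN 2 were above their group, with medians of 0.71 and 0.69. Without S100B these were 6 and 8 of 10, with medians of 0.69 and 0.65. The intermediate filament VIM measured 15.75 against 14.21 to 14.71 and 15.68 against 14.28 to 14.79. GFAP on CR TN 1, at 6.52, was inside its group (5.86 to 6.72), and AQP4 was inside the group range on both. The myelin gene MBP measured 13.51 against 11.002 to 12.28 and 13.92 against 11.87 to 12.69. SOX10 of the same list went the other way, at 12.52 against 12.76 to 13.24 and 12.48 against 12.60 to 13.14. Of 6 myelin genes 4 and 2 were above and 1 was below on each pig, with medians of 0.33 and -0.11. Of 11 neuronal genes 1 and 2 were above their group and 5 were below it on each pig. NEFH, a heavy neurofilament, measured 10.17 against 10.86 to 11.57 and 9.76 against 10.69 to 11.93.

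Lists beyond glia also stood apart on these pigs. All 7 endothelial genes were above their group on both, by a median of 0.70 and 0.97. Of 7 anterior lobe hormone genes 5 and 6 were below their group, with TSHB, the thyrotropin subunit, at -5.40 and -6.50 log2 units from the mean of the other pigs. Of 9 folliculostellate genes 4 and 2 were above and 3 and 5 below. The 3 measured blood genes had a median of 1.29 on CR TN 1 (2 above and 1 below the group) and -0.55 on LW TN 2 (0 above and 1 below). HBB, a haemoglobin chain, measured 11.50 on CR TN 1 against 9.56 to 10.73, and 10.83 on LW TN 2 against 10.27 to 10.84. AHSP, the chaperone of alpha haemoglobin, measured 9.54 against 7.98 to 8.36, and 8.67 against 8.43 to 9.69. ALAS2 was below its group on both, at 6.62 against 7.02 to 7.43 and 6.30 against 6.65 to 7.26. The part of cell composition in these values was not tested.

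**Figure D5:**
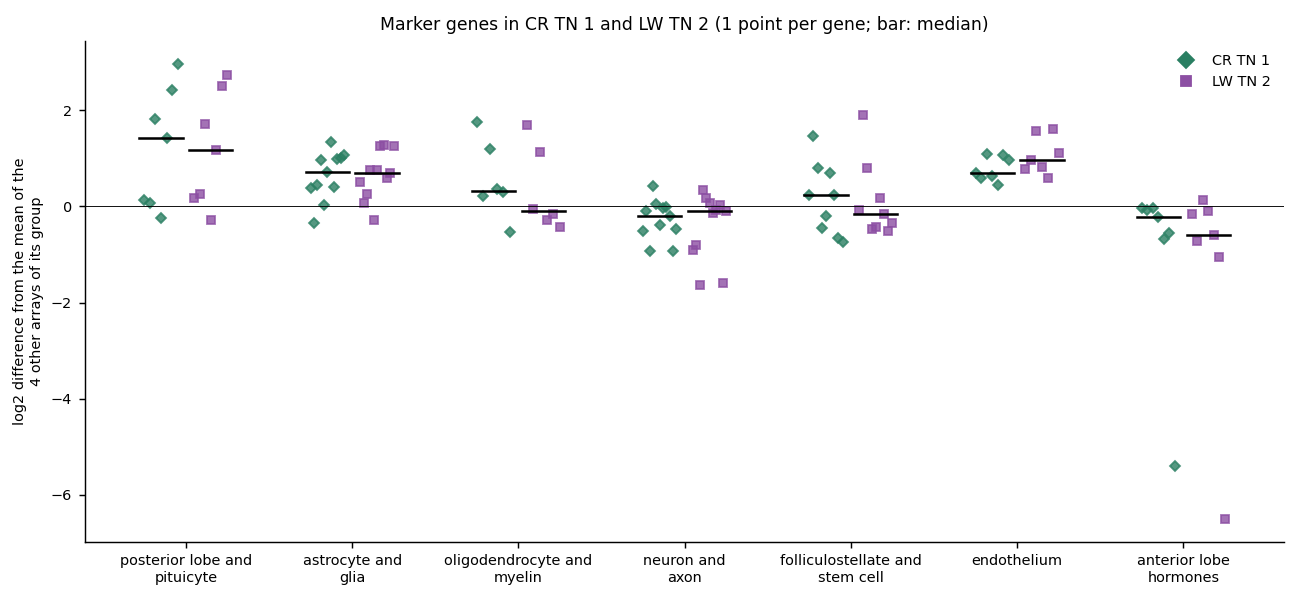
Log2 difference of CR TN 1 (diamonds) and LW TN 2 (squares) from the mean of the 4 other pigs of their group, 1 point per gene in 7 marker lists, with list medians as bars. Posterior lobe medians are at 1.41 and 1.17, endothelial medians at 0.70 and 0.97, and TSHB lies at -5.40 and -6.50.

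Related genes were examined for heat in the same fit. Of the 4 receptors of vasopressin and oxytocin, AVPR2, the kidney receptor of vasopressin, had a named probe in the table and gave -0.02 for HS minus TN (SE 0.05, limma adjusted p 0.951). Of 8 measured genes of prohormone processing and peptide turnover limma called 0 for heat, with 0 at an unadjusted p under 0.05, 6 had a positive difference in HS, and the median was 0.06 against 0.02 over all 9675 genes. Of these 8, 3 were positive and 5 negative without CR TN 1 and LW TN 2, with a median of -0.0006. The 5 genes of glutamate and water handling gave 0 calls (0 unadjusted) and a median of -0.04, and the 6 LIM homeodomain genes and cofactors 0 calls (1 unadjusted) and 0.01. Of the marker lists, 7 posterior lobe genes gave 0 calls (1 unadjusted) and a median of -0.13, 11 astrocyte genes 0 calls (1 unadjusted) and -0.05, and 6 myelin genes 0 calls (2 unadjusted) and -0.20. The 11 neuronal genes gave 0 calls (1 unadjusted) and 0.09, the 9 folliculostellate genes 0 calls (0 unadjusted) and -0.01, and 2 intermediate lobe genes 0 calls (0 unadjusted) and -0.15. The 7 endothelial genes had negative differences without exception, with a median of -0.23, 0 calls and 4 unadjusted, where 8.77% of all probes had an unadjusted p under 0.05. Without CR TN 1 and LW TN 2, which were above their groups for all 7, 6 of 7 were negative, the median was -0.14 and 2 were unadjusted. Without both pigs the medians were -0.04 for the posterior lobe list (2 of 7 positive), 0.04 for the astrocyte list (6 of 11), -0.23 for the myelin list (2 of 6), 0.0029 for the neuronal list (6 of 11), 0.0002 for the folliculostellate list (5 of 9), -0.07 for the intermediate lobe genes, -0.02 for glutamate and water handling (2 of 5) and 0.05 for the LIM homeodomain list (4 of 6). The 7 anterior lobe hormone genes gave 0 calls, a median of 0.0042 and 4 positive differences, and without both pigs -0.04 and 2. In the S100 family of 7, 0 were called for heat (0 unadjusted). S100A13, well above background on 20 arrays, was lower in Large White than in Creole, at -0.70 (limma adjusted p 0.0189). In that comparison 6.65% of all probes were called, and of the lists also CDH5, KDR and GAD2 (higher in Large White) and GAP43 (lower). Between F1 and Large White (1.48% of all probes called) CDH5 and TEK were called lower in F1. Across the marker lists 1 gene was called between HS and TN, HBB of blood, lower in HS at -1.15 (adjusted p 0.0301). Without CR TN 1 and LW TN 2 it was at -1.06 and no longer called (adjusted p 0.112). The 3 measured blood genes all had negative differences. The part of blood in the other values was not tested.

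The genes most like AVP, OXT and S100B were sought among 9668 genes by r of deviations from group means over the 33 arrays. For AVP on O6139 these were PTP4A3 (r 0.81), PARD3 (0.81), ZFP91 (0.80), RABGAP1L (0.79) and NFE2L1 (0.79), where the 99th percentile of r was 0.66. For OXT they were EP300 (0.80), DNAJC13 (0.79), WDR35 (0.76), MPP5 (0.75) and RHOT1 (0.75), with a 99th percentile of 0.61. For S100B they were RAB42 (0.74), MAL (0.74), ST6GALNAC5 (0.71), IGFBP7 (0.70) and FILIP1 (0.70), with a 99th percentile of 0.57. Without CR TN 1 and LW TN 2 the r of the first 2 sets stayed between 0.72 and 0.82, and that of the S100B set was between 0.46 and 0.64.

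The same was done for the coding-part AVP probe and LHX2, chosen after the values had been seen. Among the nearest to the AVP probe were DTX1 (r 0.80), RNF152 (0.80), PPM1M (0.79) and PLPPR5 (0.78), and without both pigs these r were between 0.66 and 0.73. Nearest to LHX2 were PSAT1 (r 0.93), COLEC12 (0.92), FSTL1 (0.92), TBX3 (0.90) and RAMP2 (0.90). RAMP2, a subunit of the adrenomedullin receptor, measured 12.90 on CR TN 1, 13.21 on LW TN 2 and 10.94 to 11.78 on the others. Without both pigs, r with LHX2 was 0.75 for PSAT1, 0.79 for COLEC12, 0.76 for FSTL1, 0.63 for TBX3 and 0.65 for RAMP2.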

How the data were processed

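Pituitary RNA of 33 pigs was hybridised to Agilent porcine arrays in 1 colour on 5 slides. The scanner files, as deposited, hold pixel intensity per spot, read with Agilent Feature Extraction 10.10.1.1 and not normalised. The authors deposited log2 values of 45667 probes, made by quality control and quantile normalisation, which were the main values. Quantile normalisation repeated here from the scanner files differed from them by a median of 0.0038 and at most 0.177. Signal over background and the number of arrays limit the precision.

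Groups came from the labels. Probes were named by gene name (18709 probes), accession (865) or synonym (161), the latter 2 through a RefSeq list of pig genes (assembly Sscrofa11.1, names only). The members and lists were chosen with earlier results of these data known. Each gene was described by its brightest probe, the others by count and range. The genes named as most alike were the 5 with the highest r. For the coding-part AVP probe 1 of these 5 is not reported here. limma 3.58.1 in R 4.3.3 (files read with version 1.17.8 of the data.table package) fitted breed and temperature, or 1 mean per group for heat within breeds and the interaction, two-sided, with Benjamini-Hochberg adjustment over all 45667 probes and a threshold of 0.05. The pen, slaughter day, father and mother of the study's model are not in the labels and were not fitted. A 95% interval is that of limma's moderated estimate. Correlations used Python 3.11.15 (numpy 2.4.6, scipy 1.17.1, pandas 2.3.3) and figures matplotlib 3.10.9. On simulated data limma recovered 88.1%, 98.5% and 100% of probes changed by 0.5, 1 and 2 log2 units between HS and TN, with 6 false calls. Alternatives were other normalisations and background correction, a filter on dim probes, slide as a block, array weights, LW HS 3 as Creole or left out, each array left out and, added after seeing the data, CR TN 1 and LW TN 2 left out, for the lists too.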

Additional observations from a re-analysis of the deposited data

Results flagged for a closer look

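Of 90 checks of 1 probe in 1 group, 10 had a pig whose distance from the nearest of the others was large for the range of its group, and chance marks about 1 in 20 groups. The coding-part AVP probe measured 9.46 on CR TN 1, where the other CR TN pigs lay between 7.50 and 8.01. LHX2 measured 8.33 on LW TN 2 (others 6.52 to 6.81) and 5.94 on CR HS 4 (others 6.66 to 7.02). OXT on O780 was 15.42 on LW HS 1 (others 15.71 to 15.86), and on A_72_P442402 it was 14.58 on CR TN 3 (others 14.96 to 14.99). S100B was 14.83 on F1 HS 3 (others 14.17 to 14.34), 1 of the 2 F1 pigs that reached the Creole range. AQP4 on A_72_P165426 was 7.68 on F1 TN 4 (others 8.49 to 8.81), the pig that was also lowest on the other AQP4 probes. SLC1A3 was 6.47 on F1 HS 5 for its main probe, 6.07 on F1 TN 3 for O13275 and 5.30 on F1 HS 2 for A_72_P167041, so each of its probes had a different pig standing apart.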

How the results depend on the processing

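Leaving out 1 array at a time, the number of the 15 probes called was 0 to 1 for F1 against Large White and 0 to 2 for F1 against Creole, the number of correlated gene pairs 0 to 1, and r of AVP with OXT 0.29 to 0.42. The F1 against Creole count was 0 with quantile normalisation repeated from the scanner files, the processed signal, and LW HS 3 as Creole. The F1 against Large White count was 1 with array weights. r of AVP with OXT was 0.64 with slide means removed, and 0.40 with LW HS 3 as Creole, by Spearman's rho and without the 2 farthest arrays, but 0.19 with the processed signal and 0.28 without CR TN 1 and LW TN 2. Pairs passing adjustment were 1 with slide means removed and 2 without removal of group means (LHX2 with S100B, S100B with GFAP). The cause of these changes was not tested. HS minus TN of GFAP was between -0.29 (processed signal) and -0.06 (without both arrays). Differences near 0 changed sign. HS minus TN became 0.0133 for S100B with the processed signal and 0.0468 without CR TN 1 and LW TN 2, and for AQP4 -0.00723 with the processed signal, -0.0147 with normexp, -0.0212 with slide as a fixed block, -0.00404 with slide as a random block and -0.0155 without both arrays. Large White minus Creole became 0.0462 for AQP4 and -0.0561 for SLC1A3 with LW HS 3 as Creole, and -0.0161 for SLC1A3 with array weights. F1 minus Creole became 0.0370 for OXT with the processed signal and -0.00937 for AQP4 with array weights, and F1 minus Large White 0.0266 for GFAP with array weights. r of AVP with LHX2 became -0.0115 with the processed signal and -0.22 without both arrays. With 1 array left out, 26 further values changed sign, within -0.0408 to 0.0490 (HS minus TN), -0.0672 to 0.0431 (Large White minus Creole) and -0.00314 to 0.12 (F1 minus Creole) for AQP4, -0.21 to 0.0968 for LHX2 (Large White minus Creole), -0.0874 to 0.00465 for S100B (HS minus TN), and -0.0207 to 0.0903 (HS minus TN) and -0.0614 to 0.0851 (Large White minus Creole) for SLC1A3. No paired analysis was possible because the labels carry no replicate numbers shared between groups. Intensity close to background limits GFAP, SLC1A3 and LHX2.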

Other observations

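Further genes of the lists differed on CR TN 1 and LW TN 2, pigs singled out after their values were seen. AQP1, a water channel of endothelium and epithelia, measured 13.73 on CR TN 1 (other CR TN pigs 11.79 to 12.41) and 13.55 on LW TN 2 (other LW TN pigs 11.61 to 12.57). PCSK2, the prohormone convertase strong in the intermediate lobe, measured 8.44 (7.001 to 7.90) and 10.25 (8.46 to 9.22), while its relative PCSK1 measured 12.19 (12.85 to 13.44) and 12.26 (13.29 to 13.54). The transcription factor SOX9 of glia and stem cells measured 9.63 (7.68 to 8.76) and 9.19 (6.77 to 7.58). S100A16, a relative of S100B, measured 14.23 (12.94 to 13.49) and 14.03 (13.07 to 13.36), and S100A10 went the other way at 8.07 (8.25 to 8.58) and 8.09 (8.38 to 8.62). LHX3, the LIM homeodomain factor of the anterior lobe, measured 11.81 (11.95 to 12.30) and 11.44 (12.06 to 12.22). By list, 4 of 6 LIM homeodomain genes and cofactors were above their group on each pig and 2 were below. In the S100 family 3 and 5 of 7 were above and 2 and 1 below. For glutamate and water handling 3 and 2 of 5 were above and 1 below on each pig. For prohormone processing and peptide turnover 1 and 2 of 8 were above and 4 and 6 below.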
